A study of Mus musculus with 8 samples.

Results

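The genes described here are 9 core components of the PI3K, Akt and mTOR pathway in mouse primary T cells: Pik3cd, Pik3r1, Akt1, Akt2, Tsc1, Tsc2, Mtor, Rptor and Rictor. They were chosen by name, and their rows were taken from 2 deposited lists of N6-methyladenosine (m6A) peaks. An m6A peak is a stretch of RNA that is enriched after immunoprecipitation with an antibody against methylated adenosine. All 9 genes were found, with 26 of the 23368 peaks of the PTC list and 32 of the 29586 peaks of the control list. They are 9 of 12413 genes with a peak in either list.

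The primary T cells were cultured and either treated for 24 h with PTC, a name that the labels do not spell out, or kept as controls, also labelled 24 h. The protocol text of every sample, controls included, speaks of PTC treatment, and the groups here follow the treatment label and the titles. Each condition had 2 immunoprecipitated and 2 input samples (8 samples in all), and the files used here hold 1 peak list per condition and no values per sample. No difference between the lists therefore has a replicate check, and no test between conditions was made. Strain, age and origin of the cells are not stated in the labels.

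PI3K converts a membrane lipid to PIP3 when the T cell receptor and costimulatory receptors are engaged. PIP3 recruits the kinase Akt, which inhibits the TSC complex and so releases mTORC1, the complex that promotes translation and growth. mTORC2 phosphorylates Akt in turn, and the pathway as a whole drives resting T cells out of quiescence. m6A is laid down in mRNA at a short consensus around the methylated A and is known to be dense near stop codons and in long last exons.

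The most frequent form of the consensus, GGACT in DNA letters, occurred 76 times in the 9 transcripts. Of these sites 28.9% lay inside peaks of both lists, against 29.0% over 8550 coding genes in both lists. In 7 of the 9 genes at least 1 GGACT site lay inside a peak of both lists (no share of all genes is given for this count). For each of these genes, the site nearest to the stop codon that is not interrupted by an intron is shown here with 8 bases on each side, 5′ to 3′ on the transcript strand, with the motif in capitals. These are the places where peaks of both conditions cover the letters that are most often methylated. Coordinates are GRCm38.
Pik3cd, chr4:149649833-149649853, minus strand, 3' UTR: gacggacaGGACTgatctctt
Pik3r1, chr13:101684744-101684764, minus strand, 3' UTR: tgcacatgGGACTagagcttt
Akt1, chr12:112656947-112656967, minus strand, coding sequence: cgtgcagtGGACTggtggggg
Tsc1, chr2:28687132-28687152, plus strand, coding sequence: cacatcatGGACTacaatgag
Mtor, chr4:148556915-148556935, plus strand, 3' UTR: cttccagtGGACTaaaaccat
Rptor, chr11:119899322-119899342, plus strand, 3' UTR: agttgaaaGGACTgacaggac
Rictor, chr15:6796280-6796300, plus strand, 3' UTR: cctactgtGGACTtcctgaaa

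No GGACT site lay inside a PTC peak alone, and a further 4 lay inside a control peak alone. These are 0 and 5.26% of the 76 sites, against 4.70 and 9.33% over 8550 coding genes in both lists. PTC peaks alone covered 3.35% of the length of the 9 transcripts and control peaks alone 9.83%. These 4 are shown because they are the motif positions inside peaks of 1 list alone. The Pik3cd and Rictor peaks here were weak (−log10 of the false discovery rate 4.36 and 3.28). The Akt1 control peak was overlapped by a PTC peak that did not reach the site. A peak missing from a list is not shown to be absent.
Pik3cd, chr4:149698642-149698662, minus strand, 5' UTR: gagtgtgcGGACTgtcagtag
Akt1, chr12:112654398-112654418, minus strand, 3' UTR: actattaaGGACTgacgcgac
Akt2, chr7:27638886-27638906, plus strand, 3' UTR: ggccccttGGACTtgactggg
Rictor, chr15:6789562-6789582, plus strand, coding sequence: actacattGGACTtgctcttc

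The genes lie on 8 chromosomes, Pik3cd and Mtor both on chromosome 4. Pik3cd (chr4:149649168-149702571, minus strand) has 24 exons in the transcript used, Pik3r1 (chr13:101680563-101768217, minus) 16, and Akt1 (chr12:112653821-112674884, minus) and Akt2 (chr7:27591552-27640826, plus) 14 each. Tsc1 (chr2:28641228-28691167, plus) has 23 exons and Tsc2 (chr17:24595816-24632630, minus) 40. Mtor (chr4:148448611-148557683, plus) has 58, Rptor (chr11:119602905-119899576, plus) 34 and Rictor (chr15:6708379-6800401, plus) 38. The 3' UTR differs widely among them, from 668 nt in Tsc2 to 4317 nt in Pik3r1.

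All 9 genes had a peak in both lists, against 79.2% of all listed genes in both, 8.24% in the PTC list only and 12.5% in the control list only. Pik3cd held 1 PTC peak and 5 control peaks, Pik3r1 4 and 6, Akt2 1 and 2, and Mtor 1 and 2. Akt1 and Tsc1 held 3 peaks in each list, and Rptor held 4 in each. Tsc2 held 2 PTC peaks and 1 control peak, and Rictor 7 and 6. More PTC than control peaks were thus listed for 2 genes, fewer for 4 and as many for 3. Of the 9836 genes in both lists 16% had more PTC peaks, 41.6% more control peaks and 42.4% as many in each. The control list is the longer one. With each list held to its strongest 23368 peaks, a setting added after the data were seen, 4 of the 9 genes had more PTC peaks (Tsc1, Tsc2, Rptor and Rictor), 4 more control peaks and 1 as many, against 24.7, 28.2 and 47.1% of 9257 genes. Over the 9 genes the ratio of PTC to control peaks was 0.81, and over all peaks it was 0.79.

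PTC peaks covered 13030 nt of the 9 genes and control peaks 17290 nt, a ratio of 0.75 against 0.81 over all peaks. In 8 of the 9 genes the PTC peaks covered fewer nucleotides than the control peaks (68% of all genes in both lists did so, and 27.8% had more in PTC), with a ratio from 0.44 in Akt1 to 0.87 in Tsc1. Tsc2 was the exception, with 511 nt in PTC and 241 nt in control peaks. Of the covered length 10896 nt were common to both lists, which is 83.6% of the PTC length and 63.0% of the control length.

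**Figure D1:**
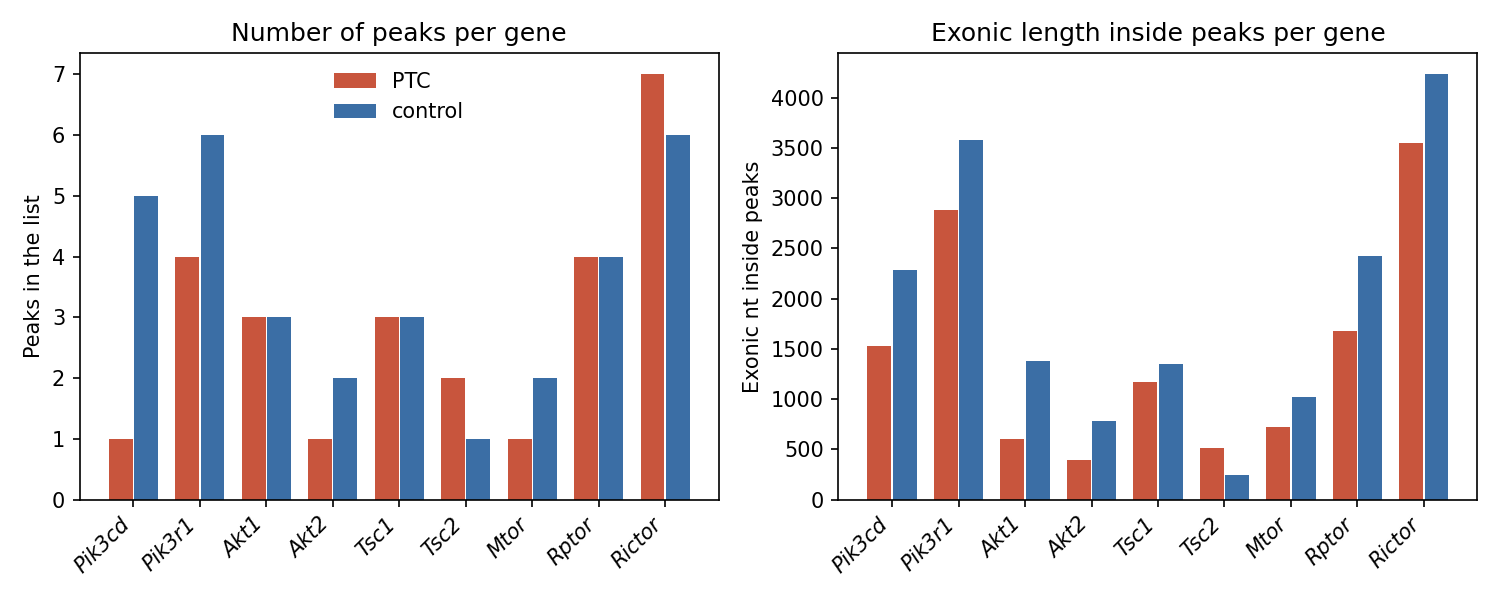
Number of peaks (left panel) and exonic nucleotides inside peaks (right panel) for each of the 9 genes, PTC list in red and control list in blue, 1 value per list and no error. The widest gap in peak number is at Pik3cd, with 1 PTC and 5 control peaks, and Tsc2 is the only gene of the 9 with more nucleotides in PTC than in control peaks.

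In the authors' deposited table of list summaries, reads in peaks make up 33.03% for PTC and 36.07% for control, and read depth is not given. Of 16 T cell markers 15 were in both lists and Trbc2, a constant gene of the T cell receptor beta chain, was in the PTC list only. Markers of other blood cells were listed too: 8 of 9 B cell markers in both lists, 6 of 9 myeloid markers in both and 2 in PTC only, 2 of 5 natural killer markers in both and 3 in control only, and 4 of 6 erythroid and platelet markers in PTC only, while none of 5 hepatocyte markers had a peak. The part of these cells in the peaks described here was not tested, and in such bulk samples a change in the mix of cells and a change of RNA within a cell cannot be told apart.

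The 2 PI3K subunits carried the strongest peaks of the 9 genes. Peak strength is given as −log10 of the false discovery rate (FDR), and enrichment as a linear fold, both the authors' values. They rank peaks within a list and are not compared between the lists. Pik3cd encodes p110delta, the catalytic subunit that predominates in lymphocytes. Its only PTC peak covered 1528 nt of the last 3 exons (chr4:149649467-149652310, fold 4.35, −log10 FDR 193), and the corresponding control peak also covered 1528 nt (chr4:149649527-149652370, fold 3.86, −log10 FDR 132). The pair shared 1468 nt and spanned the stop codon, with 355 nt of coding sequence and 1173 nt of 3' UTR in the PTC peak and 415 and 1113 nt in the control peak.

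The other 4 Pik3cd peaks were in the control list only. One lay at the 5' end (180 nt, fold 3.03, −log10 FDR 4.36) and holds the first of the 4 sequences given above, and the remaining 3 lay in coding exons, in exon 5 (−log10 FDR 6.66), exons 8 to 9 (11.4) and exons 15 to 17 (3.05). The folds of these coding peaks were low, from 1.5 to 1.72. A difference of 4 or more peaks in favour of the control list was found in 3.70% of the genes in both lists (364 of 9836). This share is given because the gap was the widest of the 9 genes, so it is not a test. Genes with fewer than 5 control peaks cannot reach such a gap. With peaks of a −log10 FDR of at least 5 alone, Pik3cd had 1 PTC and 3 control peaks.

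Pik3r1 encodes p85alpha, the regulatory subunit that stabilises p110delta and brings it to phosphorylated receptors. Its strong peaks lay at both ends of the transcript. The 3' peak in PTC covered 1531 nt from coding exon 15 into the 3' UTR (chr13:101683682-101686350, fold 6.78, −log10 FDR 198), and the control peak 1441 nt of exon 16 (chr13:101683592-101685032, 6.15, 101). The 5' peak covered 961 nt in PTC (chr13:101757320-101768217, fold 5.71, −log10 FDR 107) and 1171 nt in control (chr13:101757110-101768217, 5.61, 68.2). In both lists this 5' peak took in the whole 621-nt 5' UTR and 334 nt of coding sequence in exons 1 and 2. A further 6 nt of the PTC peak and 216 nt of the control peak lay outside the chosen transcript. A separate weak PTC peak of 181 nt (−log10 FDR 3.07), in an exon of a noncoding transcript of the gene, shared 1 nt with the control peak.

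The remaining Pik3r1 peaks had no partner in the other list. In PTC this was 1 peak of 211 nt in exons 12 to 14 (fold 1.80, −log10 FDR 9.61). In control there were 4, and the strongest of them (421 nt, fold 3.11, −log10 FDR 13.2) lay in the 3' UTR between 2307 and 2727 nt past the stop codon. This was the strongest of all control peaks of the 9 genes that no PTC peak overlapped.

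The peaks of the Akt genes were weaker, and the pair differed in where they lay. Akt1 encodes the isoform of Akt that is found in most tissues. Its 3 PTC peaks each lay wholly inside a control peak, so that all 601 nt of PTC peaks were shared, beside 1378 nt of control peaks. The strongest PTC peak covered 330 nt of exons 4 to 6 (fold 2.02, −log10 FDR 7.38) and the control peak 449 nt of exons 3 to 7 (4.03, 27.0), both in coding sequence and both over 2 GGACT sites. The first Akt1 sequence printed above lies in another, weak pair in exons 10 to 11. This pair covered 151 nt in PTC (1.92, 4.66) and 210 nt in control (1.64, 3.67). Near the stop codon the PTC peak covered 120 nt of 3' UTR from 70 nt past it (1.78, 4.15), and the control peak 719 nt that took in the stop codon (2.93, 13.6).

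Akt2, the isoform best known from insulin signalling, had peaks in its last exon alone. The PTC peak covered 390 nt from 41 nt before to 348 nt after the last base of the stop codon (chr7:27638100-27638489, fold 3.12, −log10 FDR 8.63). The control list had a peak of 360 nt from 79 nt past the stop codon (chr7:27638220-27638579, 5.53, 11.9), sharing 270 nt with it, and a further peak of 420 nt without a partner (2.01, 6.93). No GGACT of Akt2 lay inside the shared stretch.

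The TSC genes encode hamartin (Tsc1) and tuberin (Tsc2), which together inhibit the small GTPase Rheb and thereby mTORC1. In Tsc1 the strongest peak spanned the stop codon in both lists, mostly on the coding side. It covered 900 nt in PTC (chr2:28685987-28687393, fold 6.09, −log10 FDR 42.3), with 680 nt of coding sequence, and 870 nt in control (chr2:28686077-28687453, 5.10, 27.6), with 590 nt. The sequence around the last of its GGACT sites, 31 nt before the end of the stop codon, is printed above. The other Tsc1 peaks had a −log10 FDR below 5, and the weak PTC and control peaks in the 3' UTR lay at different places, from 2586 to 2736 nt past the stop codon in PTC and from 1328 to 1628 nt in control.

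The strongest Tsc2 peak was the weakest of the 9 genes' strongest peaks in each list. A peak over the stop codon was listed in both, of 271 nt in PTC (chr17:24596475-24596745, fold 2.24, −log10 FDR 6.04) and 241 nt in control (chr17:24596535-24596775, 2.18, 4.80), and the pair shared 211 nt. The second PTC peak, 240 nt from 190 nt past the stop codon, had a −log10 FDR of 2.77 and no partner. With peaks of a −log10 FDR of at least 5 alone, Tsc2 was in the PTC list only and the other 8 genes were in both lists (background at this threshold 79.5% in both, 9.86% in PTC only and 10.6% in control only). With peaks of a fold of at least 4 alone, Tsc2 was in neither list, Pik3cd was in PTC only, Akt1 and Akt2 were in control only and 5 genes were in both (background 59.4% in both, 16% in PTC only and 24.6% in control only). These calls give the side of a threshold on which a value fell. The strongest Pik3cd, Akt1 and Akt2 peaks overlapped between the lists. Their PTC and control folds were 4.35 and 3.86, 2.02 and 4.03, and 3.12 and 5.53. None of the 6 GGACT sites of Tsc2 lay inside a peak.

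Mtor, the kinase shared by mTORC1 and mTORC2, has the longest coding sequence of the 9 transcripts, 7650 nt, and nearly all of it was free of peaks. The single PTC peak covered 721 nt, of which 703 nt were 3' UTR (chr4:148556371-148557563, fold 7.62, −log10 FDR 40.3). It lay wholly inside a control peak of 901 nt that took in the entire 823-nt 3' UTR (chr4:148556311-148557683, 6.40, 34.8). All 3 GGACT sites of the Mtor 3' UTR were inside both peaks, and none of the 10 sites in the rest of the transcript was inside a peak. A weak control peak of 121 nt in exon 44 had no PTC partner (fold 6.13, −log10 FDR 4.70).

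Rptor encodes raptor, which presents substrates to mTORC1. Its 4 PTC peaks were all overlapped by control peaks, at the same sites: the 5' end (300 nt in PTC, 390 nt in control), the start codon (301 and 360 nt) and the 3' UTR. In the 3' UTR the PTC list had 2 peaks, of 120 nt (fold 3.23, −log10 FDR 4.05) and 959 nt (chr11:119898498-119899456, 6.24, 25.0), where the control list had 1 peak of 1557 nt that overlapped both (chr11:119897870-119899426, 6.08, 29.8). Rptor was the only gene of the 9 in which no peak of either list reached the stop codon. A further control peak of 121 nt (−log10 FDR 2.15) lay outside the coding transcript.

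Rictor encodes the subunit that defines mTORC2, and had the largest covered length of the 9, 3544 nt in PTC and 4232 nt in control. Its strongest peak ran from the last coding exons across the stop codon into the 3' UTR. The PTC peak covered 1470 nt (chr15:6795929-6797525, fold 10.6, −log10 FDR 117), and the control peak covered 2159 nt (chr15:6795899-6798184, 7.07, 75.3), a stretch that in PTC also held a second peak of 331 nt. A second strong site lay inside the coding sequence, with 989 nt of exons 31 to 32 in PTC (chr15:6786458-6789495, fold 5.68, −log10 FDR 88.1) and 1139 nt of exons 30 to 31 in control (chr15:6783974-6787326, 3.94, 46.2). The pair shared 869 nt, among them 1 GGACT.

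Of the weaker Rictor peaks, a PTC peak of 301 nt in the 3' UTR (−log10 FDR 2.79) shared 181 nt with a control peak of 511 nt (5.69). The 3 PTC peaks without a partner lay in the 3' UTR from 3146 to 4105 nt past the stop codon, with −log10 FDR from 2.38 to 4.10. Of the 3 control peaks without a partner, 2 lay in coding sequence (exons 21 to 22 and 32 to 34) and 1 outside the coding transcript, with −log10 FDR from 2.82 to 3.32. The last of these had the highest fold of all the members' control peaks, 15.7, over 121 nt.

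**Figure D2:**
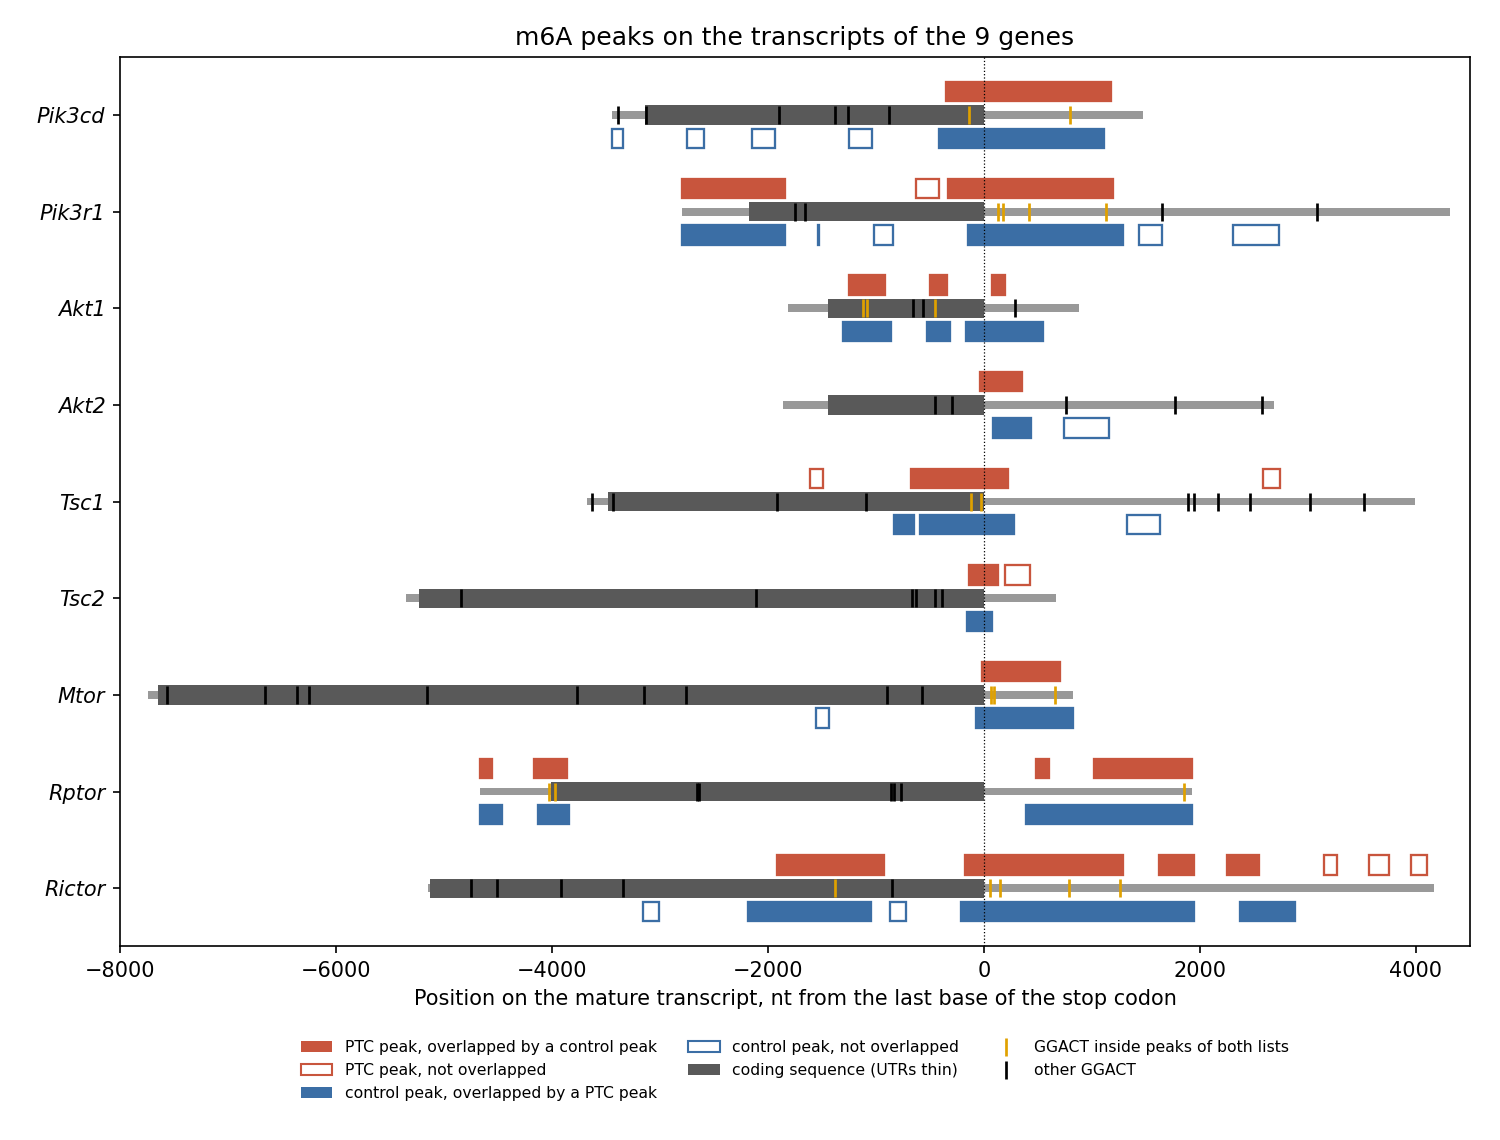
Peaks of the PTC list (red, above each transcript) and the control list (blue, below) on the mature transcript of each gene, with position in nt from the last base of the stop codon. Filled boxes have a partner in the other list and open boxes have none, thick grey bars are coding sequence, and ticks are GGACT sites. The 3 peaks that lie wholly outside the transcripts drawn (1 PTC peak of Pik3r1 and 1 control peak each of Rptor and Rictor) are not shown. The filled boxes gather at the stop codon and the adjoining 3' UTR, with further pairs at the 5' end of Pik3r1 and Rptor and in the coding sequence of Akt1 and Rictor.

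Across the 9 genes, 19 of 26 PTC peaks (73.1%, exact Clopper-Pearson 95% interval 52.2 to 88.4%) shared at least 1 bp with a control peak, against 78.8% of all PTC peaks. Of the control peaks 17 of 32 were overlapped (53.1%, 34.7 to 70.9%), against 60.2% of all control peaks. The intervals cover counting error only, and both include the share over all peaks. The overlap followed strength. At a −log10 FDR of at least 20, all 8 PTC and all 10 control peaks had a partner (99.4% and 98.2% of all such peaks), and below 5 this was 5 of 11 and 3 of 13 (56.6% and 34.4%). Between these bounds 6 of 7 PTC and 4 of 9 control peaks had a partner, against 89.9% and 74.2%. In each list the strongest peak of every one of the 9 genes had a partner. By a looser measure, 94.8% of coding genes in both lists had at least 1 overlapping pair among peaks of any strength. A strongest peak of at least 20 was found in 6 genes in PTC and 7 in control, against 40.6% of all PTC-listed and 36.8% of all control-listed genes.

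The 7 PTC peaks without a partner belonged to 4 genes (Pik3r1, Tsc1, Tsc2 and Rictor) and the 15 control peaks without a partner to 7 genes (no share of all genes is given for these gene counts). They were short, with a median of 151 nt in PTC and 180 nt in control, against 331 and 719 nt for peaks with a partner. Over all peaks the medians were 179 nt in PTC and 180 nt in control without a partner, and 331 and 390 nt with one. By midpoint, 5 of the 7 PTC peaks lay in the 3' UTR and 2 in coding sequence, where 52.7 and 39.9% of all PTC peaks without a partner lay (7.43% in the 5' UTR). Of the 15 control peaks 7 lay in coding sequence, 4 in the 3' UTR, 1 in the 5' UTR and 3 outside the chosen transcript. Of all control peaks without a partner on coding transcripts 48.1% lay in coding sequence, 44.9% in the 3' UTR and 7.05% in the 5' UTR. A PTC peak met 2 control peaks in 1 case and a control peak met 2 PTC peaks in 3 cases, where 8.33% of all PTC and 8.07% of all control peaks met 2 or more.

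**Figure D3:**
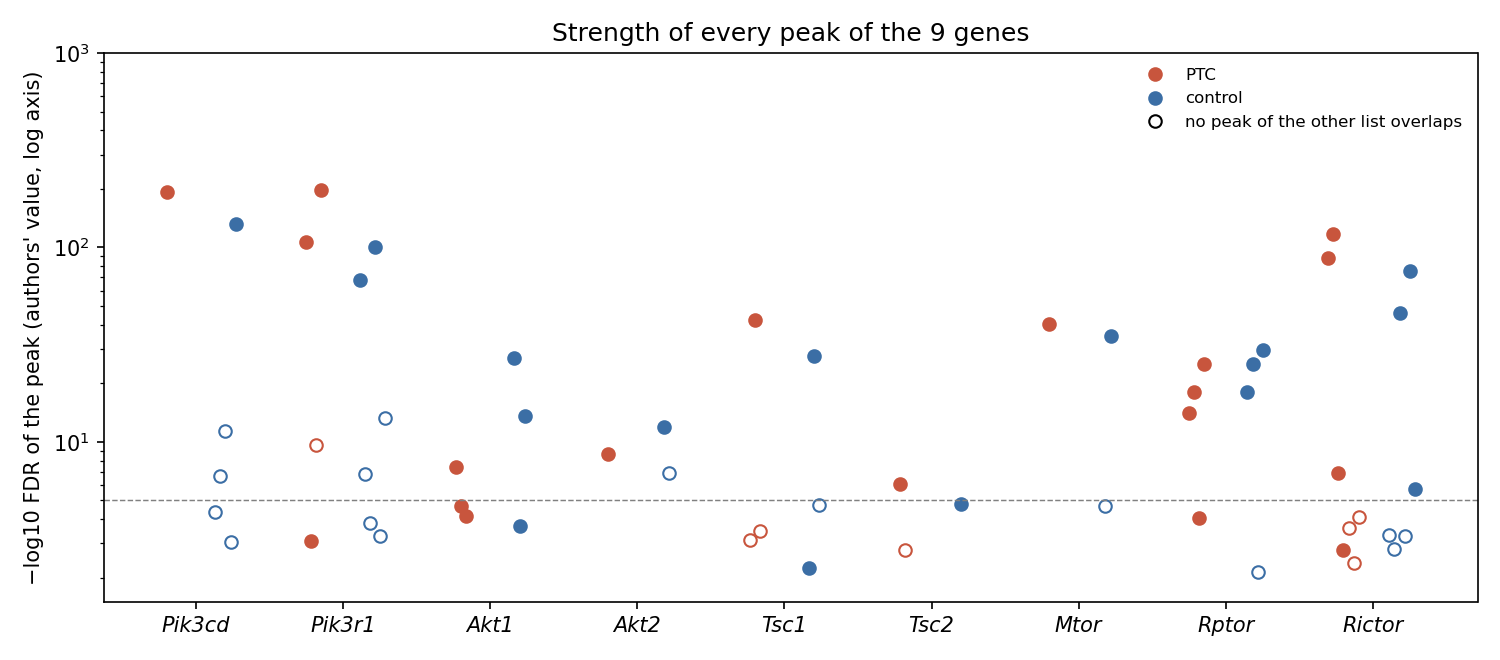
Strength of each of the 58 peaks as −log10 FDR (the authors' value, log axis), by gene, PTC list in red left of the control list in blue. Filled points have a partner in the other list, open points have none, and the dashed line is at 5. Open points reach 9.61 in PTC and 13.2 in control, while every peak above 20 is filled.

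The genes had much of their peak length in UTRs. In PTC 61.0% of the members' peak nucleotides on coding transcripts were in the 3' UTR, 32.0% in coding sequence and 7.09% in the 5' UTR, and in control 60.2, 33.3 and 6.48%. Over all coding genes the 3' UTR held 46.9% of PTC and 47.5% of control peak nucleotides. The 3' UTR makes up 36.4% of the 9 transcripts and 44.2% of the transcripts of all coding genes in the PTC list. Peaks covered 36.7% of the members' 3' UTR in PTC and 47.0% in control, and 12% and 16.1% of their coding sequence. Over all coding genes 27.5 and 33.1% of the 3' UTR and 25.9 and 30.2% of coding sequence were covered.

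By midpoint, 2 of 24 PTC peaks lay in the 5' UTR, 7 in coding sequence and 15 in the 3' UTR (5.4, 44.4 and 50.2% of all PTC midpoints), and 3, 14 and 12 of 29 control peaks (5.64, 47.1 and 47.3%).

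A peak lay over the stop codon in 7 of 9 genes in PTC and in 7 of 9 in control, and in 6 genes in both lists. Of 8554 coding genes in both lists 59% had this in PTC, 59.7% in control and 50.5% in each. The 6 were Pik3cd, Pik3r1, Tsc1, Tsc2, Mtor and Rictor. Akt2 had it in PTC alone and Akt1 in control alone. Peaks over the stop codon were 7 of 26 PTC and 7 of 32 control peaks (no share of all peaks is given for these counts). They covered from 271 to 1531 nt in PTC and from 241 to 2159 nt in control. The median width over all peaks was 270 nt in PTC and 268 nt in control. On the chosen transcripts 3 of 24 PTC and 3 of 29 control midpoints lay within 200 nt of the stop codon (12.5 and 10.3%). Of all midpoints 22.9 and 17.5% did so. The part of peak width in this difference was not tested.

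Of the 76 GGACT sites, 22 lay inside peaks of both lists, 0 inside PTC peaks only, 4 inside control peaks only and 50 outside all peaks. Per length this was 2.06 sites per kb of transcript inside peaks of both lists, 0.71 inside control peaks only and 1.28 outside peaks. Over 8550 coding genes in both lists the densities were 1.40 inside peaks of both lists, 1.14 inside PTC peaks only, 0.99 inside control peaks only and 0.98 outside. The share of sites inside peaks of both lists was 28.9% for the 9 genes and 29.0% for all these genes. Rictor had 5 such sites, Pik3r1 4, Akt1, Mtor and Rptor 3 each, and Pik3cd and Tsc1 2 each.

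By position, all 9 GGACT sites within 200 nt of a stop codon were inside peaks of both lists, where 58.7% of 4644 sites so placed were in all coding genes. In the 3' UTR it was 13 of 25 sites (34.3% in all coding genes), and in coding sequence 8 of 48 (26.8%). In the wider consensus DRACH, in which the central AC is preceded by A, G or T and then A or G and followed by A, C or T, the density in the 9 genes was 23.2 sites per kb inside peaks of both lists, 19.2 inside PTC peaks only, 17.4 inside control peaks only and 19.6 outside peaks. Over all these coding genes the densities were 22.3, 21.3, 19.6 and 19.8 per kb. A motif match does not show that the base was methylated. In windows of 101 nt at the midpoint, GGACT was found in 5 of 24 PTC and 4 of 27 control peaks (13.1 and 11.8% of all peaks), and DRACH in 20 of 24 and 25 of 27 (88.9 and 87.2%). Only the transcript strand was searched.

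A list of 90 further genes of the pathway was described by role. Of these 83 had a peak: 71 in both lists, 5 in PTC only and 7 in control only, so that 85.5% of the listed genes were in both, against 79.2% of all listed genes. They held 169 PTC and 240 control peaks, a ratio of 0.70 against 0.79 over all peaks. Among the 71 genes in both lists, 15 had more PTC peaks and 41 more control peaks (21.1 and 57.7%, against 16 and 41.6% of all genes in both lists). No test was made on these counts. The same values over all genes (79.2% of listed genes in both lists, a peak ratio of 0.79) apply to the counts by role below.

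Among the partners of the PI3K subunits, Pik3ca, the ubiquitous catalytic subunit p110alpha, had 5 peaks in each list (strongest −log10 FDR 198 in PTC and 139 in control). Pik3cg, the catalytic subunit p110gamma coupled to G protein receptors, had 5 PTC and 3 control peaks (69.9 and 27.5). Its regulatory subunit Pik3r5 had 3 and 4 peaks (67.1 and 54.2), and the related Pik3r6 was in PTC only (2 peaks, 3.48). Trat1, an adaptor of the T cell receptor complex, had 3 and 4 peaks (16.6 and 9.0). Pik3r3, another regulatory subunit, had none.

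Of 8 inhibitors of the pathway 7 were in both lists (87.5%, against 79.2% of all listed genes). Phlpp1, a phosphatase of Akt, had 3 PTC and 5 control peaks (strongest −log10 FDR 72.0 and 52.9), and the lipid phosphatase Inpp5d had 2 and 3 (41.1 and 36.6). Inppl1, a relative of Inpp5d, was in control only (2 peaks, 2.67). The 6 kinases downstream of PIP3 were all in both lists, with 12 PTC and 18 control peaks (a ratio of 0.67, against 0.79 over all peaks). Among them Tec, a kinase of antigen receptor signalling, had 2 and 3 peaks (58.1 and 46.7).

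Of the mTOR partners 6 of 8 were listed, all in both lists, among them Tti1, an assembly factor (2 peaks in each, 48.7 and 42.7), and Mlst8, a subunit of both complexes (2 in each, 19.1 and 24.4). Deptor, an inhibitor of mTOR, and Telo2 had no peak. Rheb, the activator of mTORC1, had 2 PTC and 4 control peaks (22.7 and 19.2), while Tbc1d7, the third subunit of the TSC complex, and Rhebl1 had none.

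The genes of amino acid sensing at the lysosome, which promote or restrain the recruitment of mTORC1 to its activator, were all listed, 26 of 26. Of these 20 were in both lists (76.9%, against 79.2% of all listed genes). The 26 genes held 37 PTC and 61 control peaks (a ratio of 0.61, against 0.79 over all peaks). The Rag GTPase genes Rragc (1 and 2 peaks, 134 and 96.2) and Rraga (1 and 1, 89.9 and 64.8) had the strongest PTC peaks. Lamtor1, Lamtor4, Nprl2 and Sec13 were in control only, with −log10 FDR of 2.67, 6.73, 2.32 and 3.37, and Lamtor5 and Nprl3 in PTC only, with 7.90 and 4.85. Lamtor proteins anchor the Rag GTPases, Nprl2, Nprl3 and Sec13 act in the complexes that restrain or release them. Of the stress inputs, Prkab1, a subunit of AMP-activated kinase, and Ddit4, an inhibitor of mTORC1 induced by stress, each had 2 PTC peaks and 1 control peak (76.1 and 65.4, and 45.9 and 41.4), and Prkab2 was in PTC only (3.74). Ddit4l and Prkaa2 had no peak.

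All 14 mTORC1 target genes were listed, 12 of them in both lists (85.7%, against 79.2% of all listed genes). They held 28 PTC and 44 control peaks (a ratio of 0.64, against 0.79 over all peaks). Larp1, which controls translation of ribosomal protein mRNAs, had 4 and 6 peaks (247 and 218), the same numbers as Pik3r1, and Rps6kb1, the S6 kinase gene, had 3 and 5 (105 and 68.1). Rps6kb2 and the adaptor gene Grb10 were in control only (3.67 and 1.93). Of 7 genes of Akt targets 6 were in both lists (85.7%), with 18 PTC and 31 control peaks over all 7 (a ratio of 0.58). Foxo1, the transcription factor of quiescent T cells that Akt excludes from the nucleus, had 2 and 6 peaks (260 and 191), and the Rab regulator Tbc1d4 had 4 and 5 (211 and 63.3). Gsk3a, a kinase that Akt inhibits, was in PTC only with 1 weak peak (1.68). None of the 90 genes had the peak numbers of Pik3cd, Rptor or Rictor in both lists, which 50, 190 and 21 of all listed genes had, those 3 included. Those of Mtor and Akt2 (1 PTC and 2 control peaks) were shared by 10 of the 90 and by 957 of all listed genes, Mtor and Akt2 included.

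**Figure D4:**
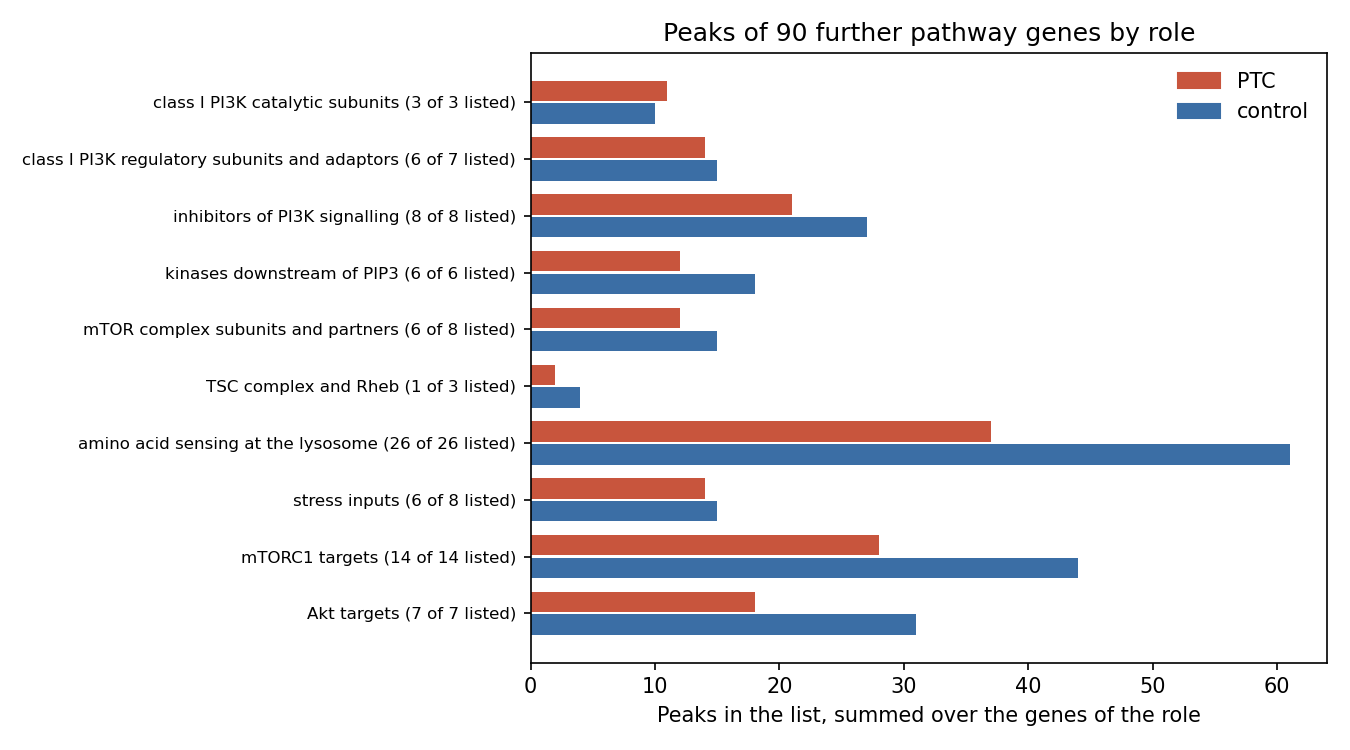
Number of peaks summed over the genes of each role among 90 further pathway genes, PTC list in red above the control list in blue, with the number of genes that had a peak in either list. The control list has more peaks in 9 of the 10 roles, and the catalytic subunits of PI3K have 11 PTC and 10 control peaks. Over all peaks of the lists the ratio of PTC to control is 0.79.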

How the data were processed

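m6A immunoprecipitates and inputs of PTC-treated and control cells were deposited as 2 peak lists. Per the submitters' processing notes, BWA 0.7.12, MACS2 2.1.0 and GRCm39 were used, with no roles given. The caller's identity, its threshold and whether samples were pooled are not stated there. Per the file headers, each peak carries the authors' fold enrichment (a linear ratio, taken as immunoprecipitate over input, scaling not stated), p-value and log10 FDR. The deposited summary gives the percent of reads in peaks. It also counts fewer peaks, 15855 for PTC and 19420 for control, than the lists hold lines; the full lists were used. Depth is unknown.

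Coordinates were read as GRCm38. Of PTC and control peaks 99.8 and 99.9% lay inside the GENCODE M21 gene of the same identifier, and all 74 inner block edges of the members' peaks fell on exon edges. Nothing was converted. Positions are 1-based.

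Python 3.11.15 and SciPy 1.17.1 were used. Peaks overlapped when exon blocks shared at least 1 bp on 1 strand. Regions, exon numbers and motifs refer to 1 transcript per gene (principal isoform, then longest coding sequence) of GENCODE M21, whose sequences are those printed. Functions were tested on simulated data.

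The members, gene lists and tests were chosen with earlier results of these data known. Of the 90 further genes, all in 1 list only and the 2 of each role with the strongest PTC peaks are named, with those sharing a member's peak numbers counted. Results of a few of these genes are not reported here. Naming those with no peak was decided with their values known.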

Additional observations from a re-analysis of the deposited data

How the results depend on the processing

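No paired analysis was possible because the lists hold no values per sample and no sample number is shared between groups; for the same reason no replicate could be left out. Other settings gave 47 values. Of these 30 were close to the reported ones (a share inside its 95% interval, a count changed by at most 1.5 times), and 17 were not. With so few peaks the intervals are wide, so this tally does not show that the shares are stable. The PTC share overlapped counted as close when it fell from 73.1 to 53.8% with at least 50% of each peak required. So did the PTC midpoints near the stop codon, from 12.5% within 200 nt to 4.17% within 100 nt. With peaks of a −log10 FDR of at least 5 the members had 15 PTC and 19 control peaks, and 1 member (Tsc2) was in PTC only. With peaks of a fold of at least 4 they had 10 PTC and 14 control peaks, with 5 members in both lists, 1 in PTC only (Pik3cd), 2 in control only (Akt1 and Akt2) and Tsc2 in neither, and of the further pathway genes 43 were in both and 17 in control only. With lists of equal length 69 pathway genes were in both lists, 7 in PTC only and 3 in control only. Of all genes listed in that setting 78.8, 13.6 and 7.53% were. In the full lists the pathway counts were 71, 5 and 7. For the members the equal-length tally was added after the data were seen. There 4 members had more PTC peaks, 4 more control peaks and 1 as many. Requiring midpoints within 100 bp lowered the overlapped share to 34.6% of PTC and 28.1% of control member peaks, against 49.0 and 38.7% of all peaks. With GGACT in place of DRACH, 22 sites lay in PTC and 26 in control member peaks, against 285 and 346. Fewer peaks pass the stricter thresholds by construction. Depth per list is unknown, so a peak missing from a list is not shown to be absent.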
